A study of Mus musculus with 16 samples.

Results

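RNA of monocytes with high surface Nrp1 was compared with RNA of monocytes with low surface Nrp1 from the spleen of the newborn mouse, over all genes. The comparison used 6 of the 16 libraries of the study, 3 Nrp1 high and 3 Nrp1 low, chosen by their labels and not by any measured value. Both groups were wild type C57BL/6J mice aged 7 days, with no treatment named, and the sort on Nrp1 is the difference that the labels give. Per the labels, each RNA library came from 80000 cells sorted from spleen. The sample labels call the cells myeloid-derived suppressor cells and the protocol calls them monocytes. The protocol speaks of pooled RNA and names no animals, so the p-values below reflect library spread only, and that spread may be technical. The other 10 libraries were ATAC-seq of the same 2 fractions, used here only as the authors' deposited comparison of open chromatin. The count table held 25562 genes, of which 15541 had enough counts to be tested.

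Neuropilin-1 is a transmembrane co-receptor that binds class 3 semaphorins and VEGF and signals with plexins or VEGF receptors. On immune cells it also takes part in contacts between cells. Classical monocytes are made in marrow and, in the newborn, also in spleen and liver, from progenitors that they share with neutrophils. They carry the chemokine receptor Ccr2, the antigen Ly6c2 and the receptor of colony-stimulating factor 1, Csf1r. Neutrophil precursors are marked instead by a sequence of granule proteins.

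Totals lay between 23395363 and 35127433 counts per library. On the first principal component, with 49% of the variance, Nrp1 low library 1 lay apart at -133.3 against -22.84 to 71.07 for the others. Mitochondrially encoded genes took 0.784 to 1.57% of counts in the low and 1.29 to 3.01% in the high libraries. The classical monocyte markers were present in every library. Ly6c2 stood at 1965, 1627 and 2617 CPM in the low and 2309, 1879 and 1866 CPM in the high libraries, Csf1r at 377, 469.8 and 413 and 488, 464 and 495 CPM. CPM are counts scaled to a common library size with TMM factors. Summed over 42 secondary granule and maturity genes of neutrophils, the low libraries held 58530 to 97180 CPM and the high libraries 10450 to 11880 CPM. Over 20 primary granule and progenitor genes the sums were 15480 to 24040 against 4457 to 7766 CPM. Of the 42 secondary granule genes 1 was at 0 in all high libraries, and none of the 20 was. In bulk samples, fewer cells of a type and less RNA per cell cannot be told apart.

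The 2 directions differed in how many genes passed the test. With the quasi-likelihood test of edgeR and an adjusted p under 0.05, 1 gene was called higher in Nrp1 high (0.00643% of the genes tested) and 105 lower (0.676%). At an unadjusted p under 0.05 the counts were closer, 699 higher (4.5%) and 1045 lower (6.72%). Their order turned without low replicate 2, to 1837 higher and 1636 lower, and with library totals in place of TMM, to 1268 higher and 605 lower. It also turned with other tests, to 1154 higher and 1135 lower with DESeq2 and 1327 higher and 1160 lower with limma-voom. All 3 high libraries lay above all 3 low libraries in 9.51% of the genes tested, and below them in 10.8%. DESeq2 called 77 genes higher (0.495%) and 326 lower (2.1%), and all 77 were among edgeR's 699. Leaving out Nrp1 high replicate 3, edgeR called 0 genes, with 276 higher and 633 lower at unadjusted p under 0.05. Without low replicate 3 it called 0 higher and 29 lower, without high replicate 1 0 higher and 28 lower, without high replicate 2 1 higher and 49 lower, and without low replicate 1 5 higher and 120 lower. Single genes below are given with the test over all genes and all 6 libraries unless said otherwise.

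Nrp1 itself (ENSMUSG00000025810, chromosome 8, 128358591 to 128505476) checks the sort. Its RNA stood at 20.1, 57.8 and 41.5 CPM in the low libraries, against 97.3, 89.8 and 111 CPM in the high libraries, so that every high library lay above every low one. The means were 99.5 ± 10.98 against 39.8 ± 18.9 CPM (SD, n = 3), a log2 difference of 1.32 ± 0.36 (SE), with an edgeR adjusted p of 0.259 and a DESeq2 adjusted p of 0.0218. In a two-sided exact permutation test p was 0.1, the smallest that 3 against 3 libraries allow. Of the 20 tested genes of neuropilins, semaphorins, plexins and VEGF 0 were called by edgeR and 1, Nrp1, by DESeq2. At unadjusted p under 0.05 2 were higher and 2 lower, 4 lay above and 2 below in all libraries, and the median log2 difference was 0.33, or 0.11 without low library 1, against 0.01 for all genes tested. Those above were Nrp1, Nrp2, Plxnb2 and Plxnd1, the last 3 chosen after their values were seen. Nrp2, the paralogue of Nrp1, was at 0, 0.209 and 0.499 CPM in the low and 1.67, 2.81 and 1.36 CPM in the high libraries (adjusted p = 0.4203). Plxnd1, a plexin receptor of semaphorins, was at 2.16, 35.5 and 24.98 against 48.9, 45.1 and 51.3 CPM (adjusted p = 0.492). Plxnb2 was at 16.2, 101 and 83.7 against 142, 112 and 149 CPM (adjusted p = 0.465). Low library 1 was the lowest of all 6 for each of these 4 genes. Those below were Vegfa, the VEGF-A ligand, at 4.48, 9.64 and 6.16 against 1.51, 2.997 and 3.92 CPM (adjusted p = 0.4203), and Plxnb3 at 7.85, 7.39 and 5.99 against 4.98, 2.75 and 2.301 CPM (adjusted p = 0.4105).

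Ugt1a6a was the gene called higher (ENSMUSG00000054545, chromosome 1, 88134809 to 88220002). It encodes a UDP-glucuronosyltransferase, an enzyme that joins glucuronic acid to phenols and other small molecules so that they can be excreted. The low libraries held 5.02, 7.31 and 7.16 CPM and the high libraries 20.2, 26.6 and 34.2 CPM. The lowest high library was thus well above the highest low library, and the mean rose 4.16-fold (log2 2.06 ± 0.31, adjusted p = 0.0289). It passed again without low replicate 1 (adjusted p = 0.0221) but in none of the other 5 leave-one-out fits, where the adjusted p was 0.0825 without low replicate 2, 0.181 without low replicate 3, 0.0796 without high replicate 1, 0.111 without high replicate 2 and 0.193 without high replicate 3. UGT1A genes each have a first exon of their own and share the remaining exons, so reads of the shared part can be given to any of them and the single values are uncertain. The 8 other tested UGT1A genes had groups that overlapped, with adjusted p of 0.497 or more. Ugt1a7c, chosen after its values were seen, stood at 318, 214 and 215 CPM in the low and 166, 292 and 139.9 CPM in the high libraries. Ahr, the aryl hydrocarbon receptor, which switches on genes of this kind, stood at 5.5, 13.3 and 9.24 against 15.3, 16.4 and 16.2 CPM (log2 0.77 ± 0.35, adjusted p = 0.445), with groups that did not overlap.

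The other 19 genes of the set that follows did not pass over all genes tested, with edgeR adjusted p from 0.0724 to 0.231, and are described by their levels. With Ugt1a6a they form the 20 higher genes of lowest p that had a mean of at least 10 CPM in Nrp1 high, groups that did not overlap and no predicted or clone symbol. DESeq2 gave all 20 an adjusted p under 0.05, up to 0.0287, and the log2 differences ran from 0.69 to 2.76 with a median of 1.22. Since p and the separation of the groups chose them, both only describe the set.

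**Figure D1:**
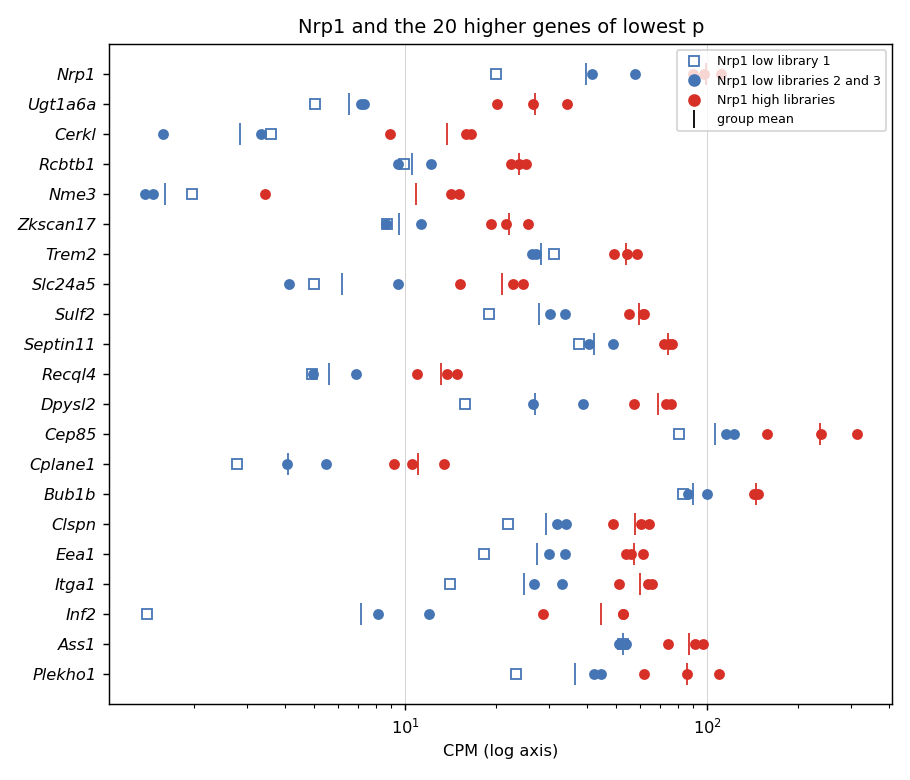
Level of Nrp1 and of the 20 higher genes of lowest p in each of the 6 RNA libraries, in CPM on a log axis. Squares are Nrp1 low library 1, blue points the other low libraries, red points the high libraries and bars the group means. In each gene the 3 red points lie to the right of the 3 blue symbols, and low library 1 is the lowest low library in 13 of the 20 genes.

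Several of these genes encode surface and extracellular proteins, and 1 an enzyme of arginine synthesis. Trem2, a lipid-sensing receptor of macrophages and microglia that signals through DAP12, stood at 31.1, 26.2 and 27.2 CPM in the low and 58.6, 54.2 and 49.1 CPM in the high libraries. The groups were tight and did not overlap, 53.96 ± 4.77 against 28.2 ± 2.59 CPM (SD, n = 3; log2 0.94 ± 0.203, adjusted p = 0.131). Sulf2, an extracellular sulfatase that trims heparan sulfate, stood at 19.01, 33.7 and 30.3 against 61.8, 55.01 and 61.5 CPM (log2 1.104 ± 0.26, adjusted p = 0.179). Itga1, the alpha chain of the collagen-binding integrin alpha 1 beta 1, stood at 14.1, 33.1 and 26.8 against 65.7, 51.2 and 63.5 CPM (log2 1.28 ± 0.33, adjusted p = 0.216). In both, low library 1 was the lowest, and the 2 other low libraries also stayed under the high ones. Ass1, argininosuccinate synthase, carries out a step in making arginine from citrulline for nitric oxide synthesis. Its RNA was at 52.6, 51.2 and 53.8 CPM in the low libraries, all nearly alike, and 74.1, 96.7 and 90.9 CPM in the high libraries (log2 0.73 ± 0.19, adjusted p = 0.229).

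Others act on the cytoskeleton and on vesicles. Inf2, a formin that builds and severs actin filaments, had a wide spread, with 1.399, 11.98 and 8.12 CPM in the low and 52.8, 28.6 and 52.7 CPM in the high libraries (log2 2.64 ± 0.68, adjusted p = 0.227). Dpysl2, a tubulin-binding protein that relays semaphorin signals in neurons, stood at 15.8, 38.8 and 26.4 against 73.2, 57.1 and 76.1 CPM, and Septin11, a filament-forming septin, at 37.5, 48.8 and 40.6 against 74.8, 72.2 and 76.6 CPM. Plekho1, a regulator of actin dynamics, stood at 23.3, 44.4 and 42.3 against 109.7, 61.9 and 85.7 CPM. Eea1, the tether of early endosomes, stood at 18.3, 33.9 and 29.9 against 55.8, 53.9 and 61.6 CPM. In each of these 5 genes low library 1 was the lowest of the 6. In Plekho1 high library 2 was the closest to the low libraries.

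A further group belongs to the cell cycle and genome maintenance. Bub1b, a kinase of the spindle checkpoint, stood at 83.4, 100.2 and 86.3 CPM in the low and 144, 148 and 143 CPM in the high libraries, the 3 high ones nearly alike (log2 0.69 ± 0.17, adjusted p = 0.211). Clspn, an adaptor of the replication checkpoint, stood at 21.9, 31.9 and 34.2 against 64.2, 48.8 and 60.2 CPM. Recql4, a DNA helicase, stood at 4.93, 4.97 and 6.87 against 14.8, 10.9 and 13.8 CPM, and Cep85, a centrosome protein, at 80.95, 122 and 115 against 313, 158 and 238 CPM. The high libraries of Cep85 were far apart, with high library 2 the lowest of them, and its groups did not overlap. Cplane1, needed for cilium assembly, stood at 2.77, 5.47 and 4.08 against 13.5, 9.17 and 10.6 CPM.

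The rest have varied roles. Cerkl, a relative of ceramide kinase, stood at 3.59, 3.34 and 1.58 CPM in the low and 8.902, 15.9 and 16.5 CPM in the high libraries (log2 2.27 ± 0.43, adjusted p = 0.0724). Nme3, a nucleoside diphosphate kinase of mitochondria, had the largest difference of the 20, but high library 2 held far less than the other high libraries, 15.04, 3.42 and 14.2 against 1.97, 1.46 and 1.37 CPM in the low ones (log2 2.76 ± 0.58). Slc24a5, a cation exchanger, stood at 4.99, 9.48 and 4.12 against 22.9, 15.2 and 24.6 CPM. Rcbtb1 and Zkscan17, a BTB domain protein and a zinc finger protein, stood at 9.92, 12.2 and 9.45 against 23.8, 25.2 and 22.4 CPM and at 8.74, 8.64 and 11.3 against 25.6, 19.2 and 21.6 CPM. Both had low libraries close to each other.

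Under the same limits on level, overlap and symbol, 4 of the 10 higher genes with the largest difference at unadjusted p under 0.05 are among those 20. The 6 others had edgeR adjusted p from 0.356 to 0.421. They were Snn, the small membrane protein stannin, at log2 2.17, Abi2, a subunit of the actin-nucleating WAVE complex, at 1.89, Ccnk, the cyclin of CDK12, at 1.88, Adgrl1, a latrophilin receptor, at 1.83, Ank, a pyrophosphate transporter, at 1.81, and Clcn5, an endosomal chloride exchanger, at 1.75. In all 6 low library 1 was the lowest. Ccnk, for example, stood at 1.81, 11.6 and 9.78 CPM in the low and 38.7, 16.2 and 30.5 CPM in the high libraries.

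The 77 genes that DESeq2 called higher also held genes of low level, 22 of them predicted or clone symbols, and 9 were listed at 0 in all 3 low libraries. A few are named here, chosen after their values were seen. Adgrg6, an adhesion G protein-coupled receptor, was at 0 in the low libraries and at 1.48, 1.68 and 1.65 CPM in the high ones (edgeR adjusted p = 0.0599). With the low group listed at 0, no fold is given. Epha2, an ephrin receptor, was at 0, 0.292 and 0.291 against 2.51, 2.72 and 2.56 CPM, and Ednrb, an endothelin receptor, at 0.413, 0.626 and 0.916 against 2.28, 3.21 and 3.34 CPM. Ppfibp1, a liprin, was at 0.858, 1.71 and 1.499 against 5.27, 7.92 and 8.26 CPM (edgeR adjusted p = 0.05804).

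Low library 1 moved with the higher genes as a whole, and its part in them was not tested. It was the lowest of the 3 low libraries in 578 of the 699 higher genes (82.7%), against 42.9% of all genes tested. The median level of the 699 genes, in log2 relative to each gene's mean over the 6 libraries, was -0.82, -0.16 and -0.33 for low replicates 1 to 3, against 0.57, 0.26 and 0.55 for the high replicates. Without low library 1, 618 of 16469 genes tested were higher at unadjusted p under 0.05. Of these 571 were among the 15541 genes tested with all libraries, and 424 among the 699. The higher genes were also long. Their median span from start to end was 37.8 kb, against 18.9 kb for all genes tested and 15.7 kb for the lower genes, and it was 37.8 kb without low library 1 as well. The part of gene length in these differences was not tested.

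**Figure D2:**
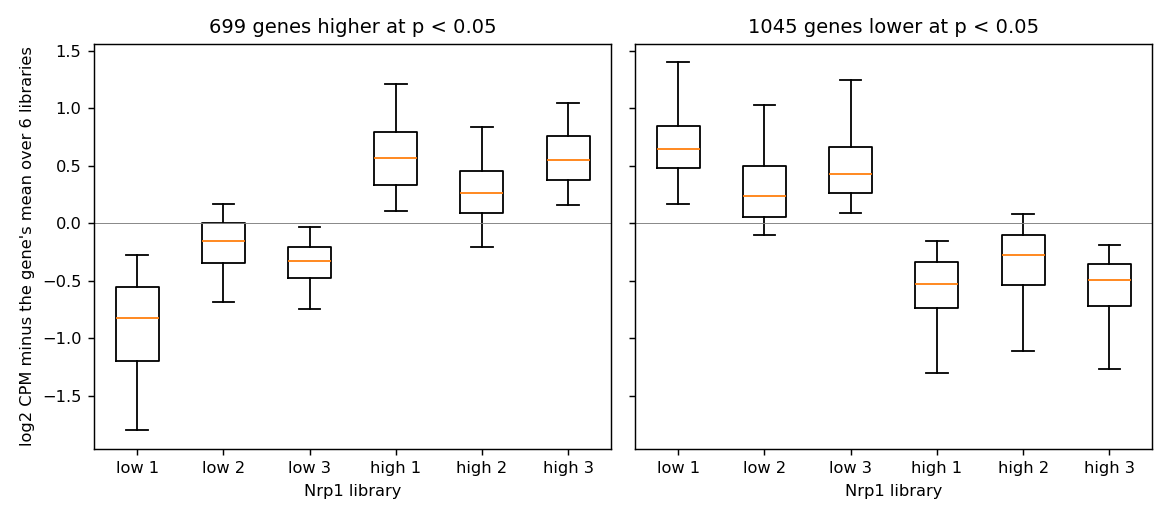
Level of the 699 genes higher and the 1045 genes lower at unadjusted p under 0.05 in each library, as log2 CPM minus the gene's mean over the 6 libraries. Boxes span the lower to the upper quartile with the median as a line, and whiskers leave out the 5% of genes at each end. Low library 1 has the lowest median of the higher genes and the highest of the lower genes, and high library 2 lies nearest to 0 among the high libraries.

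For the named genes, the authors' deposited ATAC table was set beside the RNA. In ATAC-seq a transposase inserts adapters where DNA is accessible. That its log2 fold is high over low is known from the comparison's name alone. A promoter region was one within 3000 bases of a transcript start, and the one of lowest FDR was taken for each gene. Over the 10821 tested genes with such a region the authors' deposited table had 2.15% higher and 4.93% lower at FDR under 0.05. Of the 20 higher genes 17 had a region, with 0 higher and 4 lower at that FDR. These 4 were Sulf2 at log2 -0.89 (FDR 0.0112), Ugt1a6a at -0.68 (FDR 0.0134), Ass1 at -0.51 (FDR 0.0447) and Itga1 at -0.42 (FDR 0.0401) in the authors' deposited table. As the comparison is named, these regions were less accessible in Nrp1 high, and with the sign turned they would be more accessible, on the side of the RNA. Which sign holds cannot be told from the table. Of the 699 higher genes 518 had a region in the authors' deposited table, with 11 higher and 53 lower. Among the 15 lower genes described below, 10 had a region, of which 1 was higher, that of Tinagl1 at log2 0.703 (FDR 0.0434), and 0 lower. Over the 81 called lower genes with a region, 9 were higher and 2 lower in the authors' deposited table. Camp, the granule peptide cathelicidin, named after its values were seen, fell in RNA (log2 -3.71 ± 0.29, adjusted p = 0.00416) with a promoter region at 1.09 (FDR 0.00244) in the authors' deposited table. Within Nrp1 introns 3 regions passed that FDR in the authors' deposited table, 2 with a positive fold, 60500 bases after the start at log2 1.47 (FDR 0.000351) and 71658 bases after it at 1.5 (FDR 0.000833), and 1 with a negative fold, 132065 bases after it at -0.39 (FDR 0.0296). The region nearest the Nrp1 start had -0.15 (FDR 0.516) there.

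**Figure D3:**
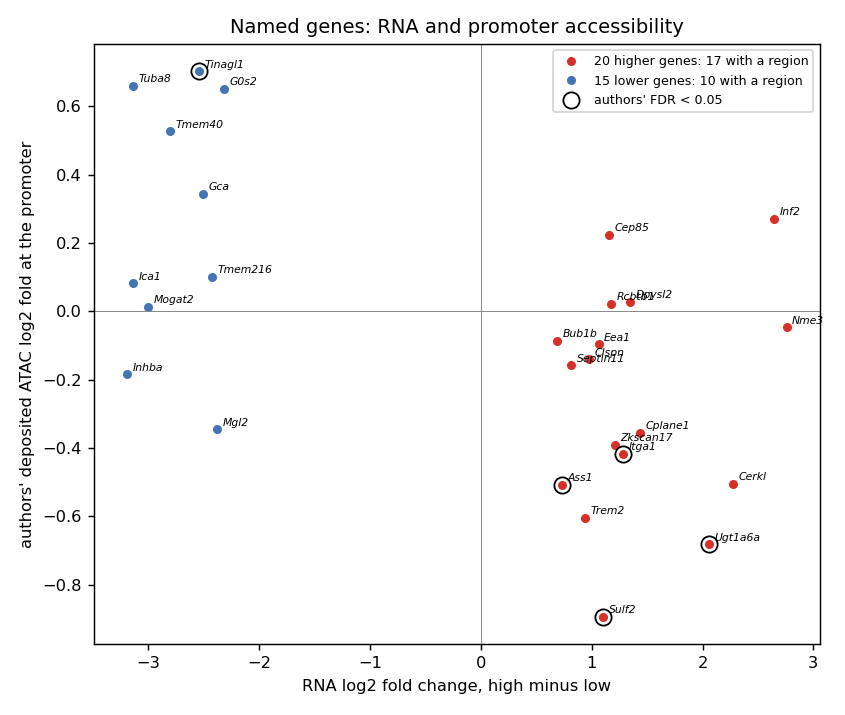
RNA log2 fold change against the authors' deposited ATAC log2 fold at the promoter region of lowest FDR, for the 17 higher genes and the 10 lower genes that have such a region. Rings mark an FDR under 0.05. Of the 17 higher genes 13 lie below 0 on the ATAC axis, against 6217 of the 10821 tested genes with a region. Of the 10 lower genes 8 lie above 0, against 4604 of the 10821 tested genes and 47 of all 81 called lower genes with a region. With the sign of the comparison turned, the sides would change places.

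The promoters of the 5 genes among the 20 higher and 15 lower genes whose region passed the authors' FDR are shown. In these 5, RNA and the deposited fold differ in sign as the comparison is named. With the sign turned they would have the same sign. Other genes named in the text also had a promoter region under that FDR, with either sign. Abi2, higher in RNA, had -0.69 (FDR 0.0155) and Ccnk, also higher, 0.26 (FDR 0.0499) in the authors' deposited table. Each runs from 250 bases before to 50 bases after the start, on the strand of the gene, from RefSeq on GRCm38.p6. Capitals mark the bases that lie inside the authors' region.
Ugt1a6a, chr1:88134559-88134858, plus strand: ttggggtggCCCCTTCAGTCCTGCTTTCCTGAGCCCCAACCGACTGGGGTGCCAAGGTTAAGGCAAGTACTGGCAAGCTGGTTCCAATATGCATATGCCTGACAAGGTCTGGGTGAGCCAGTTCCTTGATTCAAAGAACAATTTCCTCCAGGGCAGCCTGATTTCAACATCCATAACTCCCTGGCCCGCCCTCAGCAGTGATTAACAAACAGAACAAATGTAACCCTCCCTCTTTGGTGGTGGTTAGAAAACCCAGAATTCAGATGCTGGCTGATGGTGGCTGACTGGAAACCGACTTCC
Sulf2, chr2:166155634-166155933, minus strand: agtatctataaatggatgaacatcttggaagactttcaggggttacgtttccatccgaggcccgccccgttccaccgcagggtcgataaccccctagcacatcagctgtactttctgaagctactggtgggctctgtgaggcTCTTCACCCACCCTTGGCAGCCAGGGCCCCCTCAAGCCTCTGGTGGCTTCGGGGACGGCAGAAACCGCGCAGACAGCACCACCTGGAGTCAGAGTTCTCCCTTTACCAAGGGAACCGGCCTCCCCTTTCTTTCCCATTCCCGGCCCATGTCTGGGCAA
Itga1, chr13:115101915-115102214, minus strand: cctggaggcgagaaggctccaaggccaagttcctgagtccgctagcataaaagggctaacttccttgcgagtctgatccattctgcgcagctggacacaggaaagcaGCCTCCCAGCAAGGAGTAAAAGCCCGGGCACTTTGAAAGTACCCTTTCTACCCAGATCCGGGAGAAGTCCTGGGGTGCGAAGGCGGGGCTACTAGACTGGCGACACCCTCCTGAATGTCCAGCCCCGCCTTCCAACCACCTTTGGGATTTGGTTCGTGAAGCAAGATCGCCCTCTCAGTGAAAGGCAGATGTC
Ass1, chr2:31470020-31470319, plus strand: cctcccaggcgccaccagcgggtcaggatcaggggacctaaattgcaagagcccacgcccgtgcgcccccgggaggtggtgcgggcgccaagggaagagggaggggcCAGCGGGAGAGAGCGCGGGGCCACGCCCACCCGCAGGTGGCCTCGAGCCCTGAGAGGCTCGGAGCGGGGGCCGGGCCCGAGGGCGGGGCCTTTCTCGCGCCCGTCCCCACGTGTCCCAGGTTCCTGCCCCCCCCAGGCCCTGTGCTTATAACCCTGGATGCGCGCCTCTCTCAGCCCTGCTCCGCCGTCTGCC
Tinagl1, chr4:130174753-130175052, minus strand: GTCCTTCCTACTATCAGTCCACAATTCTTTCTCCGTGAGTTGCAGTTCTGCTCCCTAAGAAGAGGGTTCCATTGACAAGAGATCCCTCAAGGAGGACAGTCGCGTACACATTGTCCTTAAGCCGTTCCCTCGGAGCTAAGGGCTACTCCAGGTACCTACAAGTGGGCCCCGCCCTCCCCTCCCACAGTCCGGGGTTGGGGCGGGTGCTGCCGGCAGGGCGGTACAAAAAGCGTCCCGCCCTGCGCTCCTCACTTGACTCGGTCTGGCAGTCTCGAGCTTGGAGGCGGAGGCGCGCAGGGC
The region covered 291 of the 300 bases for Ugt1a6a, 158 for Sulf2, 193 for Itga1, 193 for Ass1 and all for Tinagl1. The windows were searched on both strands for GCGTG, the core of the aryl hydrocarbon receptor element, TGACNNNGC, the antioxidant response element, TTGCNNAA, a C/EBP motif, and GAGGAAGT, a PU.1 motif, which 32.4%, 12.4%, 10.8% and 3.2% of all 32817 promoter windows hold. The search found GCGTG on the opposite strand of Ass1, at -197 and -122 from the start, and no other match in the 5 windows. A missing match says only that these letters are not in the window.

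Among the 77 gene lists, 1 held a gene called higher, that of UGT1A and aryl hydrocarbon receptor targets. The lists described next held 0 genes called higher by edgeR, and their levels are given as values. Beside the list counts here and below stand the shares over all genes tested. Of the 15541 genes 7861 lay above 0, and 4.5% were higher and 6.72% lower at unadjusted p under 0.05. All high libraries lay above all low ones in 9.51% and below them in 10.8%. DESeq2 called 0 higher in the chromatin, histone, replication, cholesterol, plasmacytoid and sensor lists, 1 in the mitosis list, Bub1b, and 1 in the cytokine receptor list, Il6st. Chromatin modifiers had 30 of 35 tested members above 0 with a median of 0.68, and 4 at unadjusted p under 0.05, or 0.34 as median without low library 1. Kdm6a, a histone H3 lysine 27 demethylase on the X chromosome, stood at 6.33, 18 and 13.9 CPM in the low and 23.9, 24.6 and 29.1 CPM in the high libraries (adjusted p = 0.4203), and Ezh1, a methyltransferase for the same residue, at 7.38, 10.6 and 14.8 against 23.3, 16.7 and 19.2 CPM (adjusted p = 0.4203). In both genes the groups did not overlap and low library 1 was the lowest.

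Histone, mitosis and replication genes held 0 called members. Of the 26 replication-dependent histone genes 7 lay above in all libraries and 0 below, and 4 were at unadjusted p under 0.05 (median 0.33). H1f5, a linker histone, stood at 33.4, 36.7 and 34.8 CPM in the low and 43.7, 77.7 and 58.4 CPM in the high libraries, and H2ac8, a core histone, at 91.3, 114 and 134 against 151, 224 and 177 CPM. Histone genes have near-identical copies and mostly lack poly(A) tails, so their values are uncertain. Of the 32 mitosis genes 7 lay above and 0 below in all libraries, while the median was -0.05, or 0.15 with library totals in place of TMM and 0.09 without low library 1. Top2a, topoisomerase II alpha, stood at 171, 514 and 346 against 774, 585 and 764 CPM (adjusted p = 0.397) and Kif11, a spindle kinesin, at 67.9, 150.5 and 102 against 159.5, 197 and 226 CPM. Both were lowest in low library 1. Of the 32 DNA replication genes 5 lay above and 1 below (median 0.03, or 0.15 without low library 1). Pola1, the catalytic subunit of DNA polymerase alpha, stood at 19.7, 28.8 and 26.1 against 48.1, 36.4 and 45.8 CPM and Mcm10, a replication initiation factor, at 37.5, 34.3 and 37.96 against 49.6, 50.7 and 49.2 CPM. Across mitosis and replication 32 of 64 members lay below 0. Cdkn1a, the cell cycle inhibitor p21, stood at 56.9, 47.7 and 62.6 against 84.3, 118 and 89.3 CPM (adjusted p = 0.251, DESeq2 adjusted p = 0.0441).

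Cholesterol genes had 20 of 26 members above 0 (median 0.26) with 5 at unadjusted p under 0.05. Scd1, a fatty acid desaturase, stood at 17.4, 24.1 and 24.1 CPM in the low and 50.01, 27.5 and 36.6 CPM in the high libraries (adjusted p = 0.3999). Sqle and Srebf2, chosen after their values were seen, are an enzyme of cholesterol synthesis and the factor that switches the pathway on. Sqle stood at 9.697, 6.55 and 6.41 against 9.87, 16.02 and 13.2 CPM and Srebf2 at 44.1, 77.3 and 74.9 against 104, 89.5 and 103 CPM. Fdps, a synthesis enzyme, went the other way, at 115, 86.6 and 101 against 72.3, 75.8 and 66.4 CPM (adjusted p = 0.423).

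Receptors for cytokines and chemokines were mixed. Of 30 colony-stimulating factor and cytokine receptors 6 lay above and 5 below in all libraries, against 9.51% and 10.8% of all genes tested. At unadjusted p under 0.05 4 were higher and 7 lower, against 4.5% and 6.72%, with 0 called (median 0.22, or 0.07 without low library 1). Il6st, the signalling chain gp130 of the interleukin-6 family, stood at 7.76, 30.1 and 19.2 CPM in the low and 60.4, 42.1 and 56.2 CPM in the high libraries (adjusted p = 0.318, DESeq2 adjusted p = 0.0407). Csf3r, the G-CSF receptor of neutrophils, stood at 126, 119 and 113 against 72.02, 80.6 and 73.4 CPM, lower in all high libraries (adjusted p = 0.229). Flt3, the receptor of dendritic cell and progenitor growth, stood at 2.42, 3.26 and 3.33 against 8.13, 4.77 and 6.58 CPM. Among 23 chemokine and migration receptors 1 fell, Cxcr2, the neutrophil receptor of CXC chemokines, from 48.3, 28.6 and 27.97 to 5.11, 6.79 and 7.16 CPM (log2 -2.46 ± 0.32, adjusted p = 0.0149). Cxcr2 is also among the neutrophil granule, maturity and progenitor genes summed at the start. Cxcr4, which holds precursors in the marrow, went the other way, 5.25, 7.599 and 7.12 against 14.3, 13.2 and 13.1 CPM (adjusted p = 0.257, DESeq2 adjusted p = 0.0306). Ccr2, which brings classical monocytes out of the marrow, chosen after its values were seen, stood at 368, 628 and 393 against 839.7, 676 and 914 CPM (adjusted p = 0.356). Ccr2 and F13a1 are in the list of 26 classical monocyte genes, of which 0 were called, 4 lay above and 5 below in all libraries, and 2 were higher and 5 lower at unadjusted p under 0.05, or 1 and 3 by DESeq2 (median -0.06, or 0.11 without low library 1 and 0.14 with library totals). Its 2 members of lowest p lay below. Sirpb1c, a signal-regulatory protein, stood at 84.1, 66.9 and 71.97 against 36.8, 39.5 and 35.7 CPM (adjusted p = 0.0836), and Cd14, the lipopolysaccharide co-receptor, at 66.5, 40.8 and 34.9 against 13.3, 25.6 and 17.9 CPM (adjusted p = 0.234). F13a1, coagulation factor XIII A, stood at 474, 628 and 450.5 against 839, 899 and 906 CPM (adjusted p = 0.246, DESeq2 adjusted p = 0.0269). Cxcr4, Ccr2 and F13a1 all had 3 high libraries above the 3 low ones.

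Markers of plasmacytoid dendritic cells were measured in both groups. Of 11 tested 4 lay above in all libraries and 0 below, and 3 were higher at unadjusted p under 0.05 with 0 called. Tcf4, the factor of that lineage, stood at 16.8, 26.5 and 21.3 CPM in the low and 29.02, 43.4 and 38.8 CPM in the high libraries, and Siglech, its surface lectin, at 2.99, 2.25 and 1.42 against 3.44, 3.85 and 7.096 CPM. Summed over the 12 markers in the table the libraries overlapped, at 168.4 to 240.7 CPM in the low and 183.1 to 218.6 CPM in the high group. Among 27 cytosolic sensors of nucleic acids and NOD-like receptors 21 lay above 0 (median 0.23, or 0.15 without low library 1). Cgas, the DNA sensor that makes cyclic GMP-AMP, stood at 12.2, 26.3 and 26.4 against 44.5, 30.3 and 40.99 CPM, and Nlrc5, the activator of MHC class I genes, at 5.09, 16.2 and 14.99 against 31.9, 22.3 and 21.4 CPM, neither called (adjusted p = 0.434 and 0.436).

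**Figure D4:**
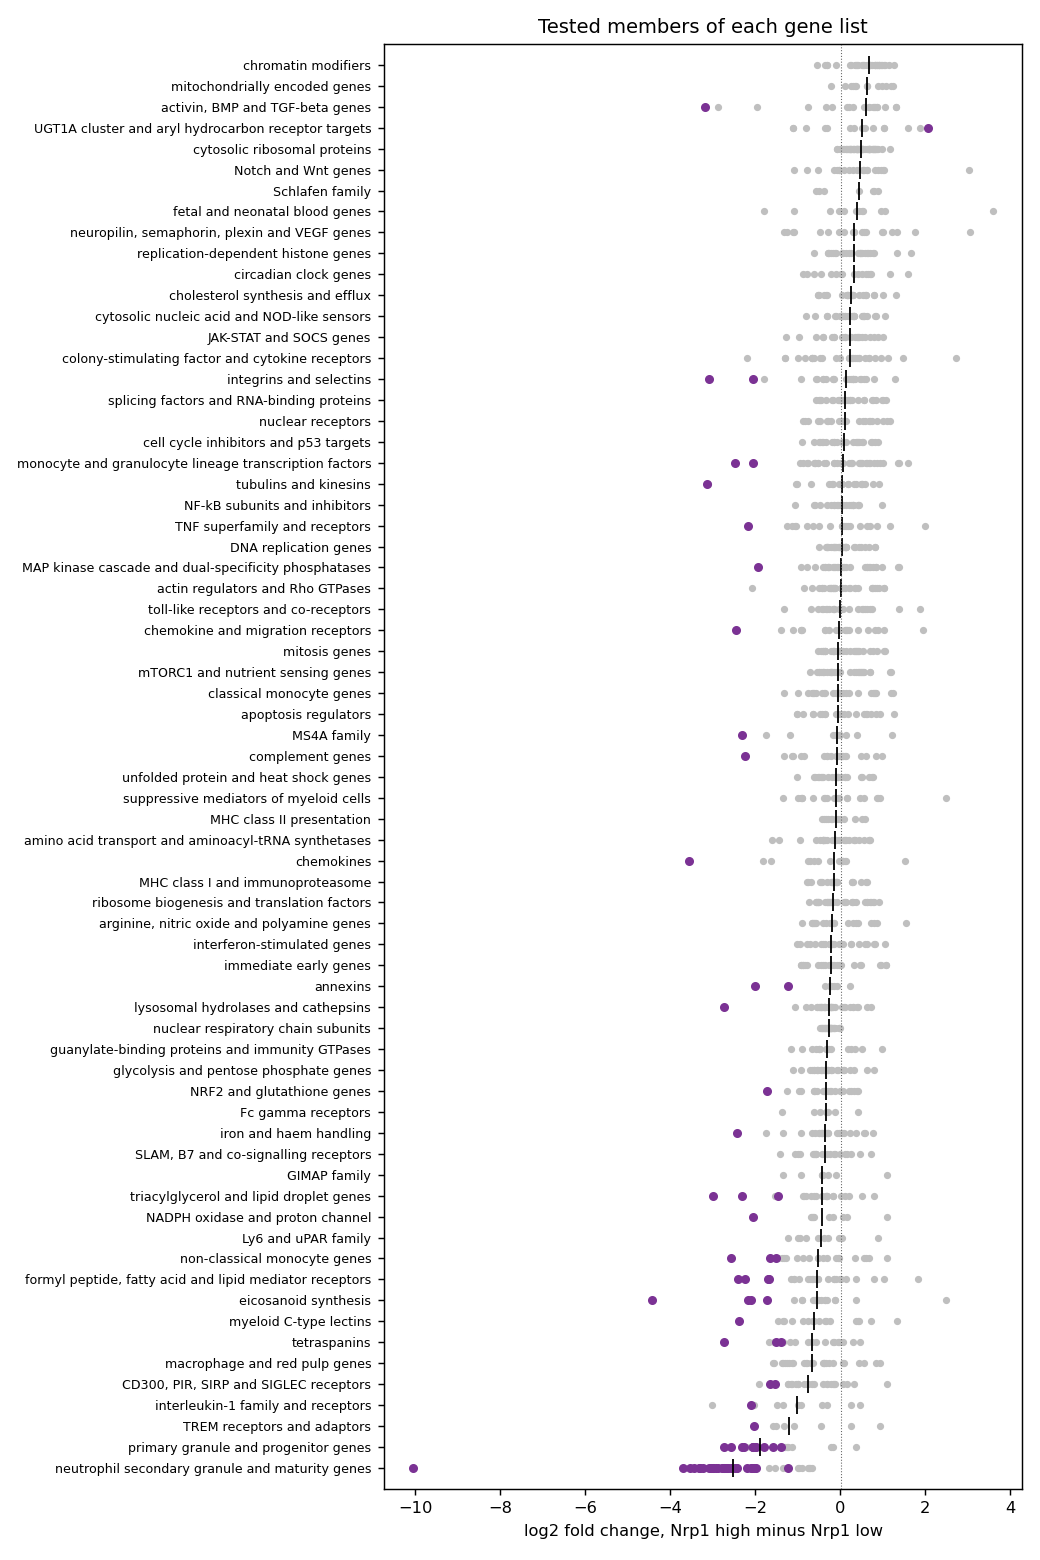
Log2 fold change, Nrp1 high minus Nrp1 low, of every tested member of the lists other than those of other cell types and those with under 5 tested members. Grey points are members, purple points members called at adjusted p under 0.05, black bars list medians and the dotted line the median of all genes tested. Purple points lie left of 0 in every list but that of UGT1A, and the 2 granule lists have the lowest medians.

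Of the 105 lower genes 42 were in the 2 granulocyte lists and 63 outside them, and 27 of the 63 in another list. The 63 had log2 differences from -4.43 to -1.11. The call chose them as lower in Nrp1 high, so they share the direction of the granule sums given above by choice. The part of the granulocyte programme in their difference was not tested. Without high replicate 3 edgeR called 0 of the 105, and with all libraries DESeq2 called all 105 lower.

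The enzymes that make leukotrienes fell at 2 successive steps. Leukotrienes are made from arachidonic acid by 5-lipoxygenase with its helper protein, then converted by leukotriene A4 hydrolase to the neutrophil attractant leukotriene B4. Of 20 tested genes of eicosanoid synthesis 4 fell and 0 rose, and 10 lay below and 2 above in all libraries (median -0.56). Alox5, 5-lipoxygenase, fell from 178, 107 and 109 CPM in the low to 21.8, 32.7 and 32.3 CPM in the high libraries, 4.53-fold (log2 -2.18 ± 0.28, adjusted p = 0.0149). Lta4h, leukotriene A4 hydrolase, fell from 1279, 839 and 907 to 205, 269 and 229 CPM, 4.301-fold (log2 -2.105 ± 0.24, adjusted p = 0.00825). The groups were far apart in both, with low library 1 the highest. The helper, Alox5ap, chosen after its values were seen, overlapped between the groups at 1404, 992 and 1311 and 1066, 928 and 981 CPM (adjusted p = 0.506). Alox12, the platelet 12-lipoxygenase, fell from 7.88, 3.13 and 6.99 to 0.289, 0.275 and 0.259 CPM (log2 -4.43 ± 0.53, adjusted p = 0.0108). Pla2g7, which breaks down platelet-activating factor and is named after its values were seen, fell from 336, 208 and 225 to 58.1, 103 and 70.4 CPM (adjusted p = 0.0459). Mgst2, of the list of NRF2 and glutathione genes, a transferase that can make leukotriene C4, fell from 74.2, 59.8 and 80.9 to 16.9, 23.6 and 24.3 CPM (adjusted p = 0.0207). Ptgs1, cyclooxygenase 1, was at 184, 143 and 175 against 76.5, 88.8 and 69.1 CPM and just missed the threshold (adjusted p = 0.0582).

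Among receptors that sense such mediators, formyl peptides and fatty acids, 4 of 26 tested fell and 0 rose (median -0.55). Ffar2, the short-chain fatty acid receptor, fell from 32.6, 34.95 and 31.1 to 6.07, 7.09 and 5.25 CPM, 5.36-fold (log2 -2.42 ± 0.25, adjusted p = 0.00629). Gpr84, a receptor of medium-chain fatty acids, fell from 36.1, 34.6 and 35.96 to 11.2, 13 and 8.78 CPM (adjusted p = 0.0253). The low libraries were nearly alike in both. Fpr1, the formyl peptide receptor, fell from 46.7, 42.8 and 32.9 to 12.98, 15.4 and 9.56 CPM (adjusted p = 0.04404), and C5ar1, the C5a receptor, from 155, 93.2 and 99.8 to 13.6, 35.3 and 24.6 CPM (adjusted p = 0.0481).

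Triacylglycerol synthesis showed the same direction. Of 23 tested genes 3 fell and 0 rose, and 10 lay below and 0 above in all libraries (median -0.44). Mogat2, monoacylglycerol acyltransferase, best known from the gut, fell from 73.8, 55.3 and 56.03 to 6.56, 7.86 and 8.65 CPM, 8.03-fold (log2 -3.004 ± 0.25, adjusted p = 0.00416). Agpat2, which makes phosphatidic acid, fell from 131, 110.2 and 122 to 38.6, 48.3 and 44.6 CPM (adjusted p = 0.0137), and G0s2, an inhibitor of fat breakdown, from 47.2, 31.9 and 42.6 to 10.1, 6.02 and 8.33 CPM (adjusted p = 0.0137). Dgat1 and Dgat2, chosen after their values were seen, carry out the last step. Dgat2 stood at 77.9, 54.6 and 76.4 against 16.5, 32.7 and 22.6 CPM (adjusted p = 0.0844) and Dgat1 at 128, 90.4 and 112 against 50.1, 74.03 and 57.5 CPM (adjusted p = 0.2403), neither past the threshold though neither overlapped.

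**Figure D5:**
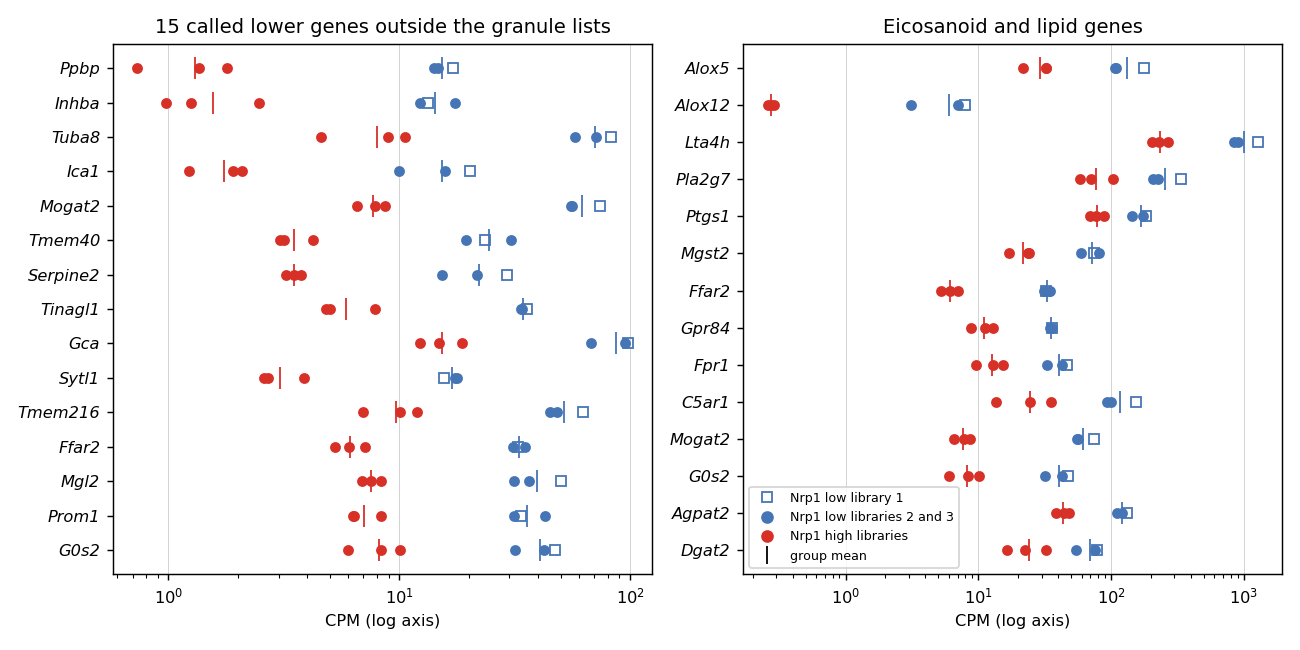
Level in each library, in CPM on a log axis, of the 15 called lower genes of largest change outside the granule lists (left) and of genes of eicosanoid synthesis, lipid mediator receptors and triacylglycerol synthesis (right). Squares are low library 1, blue points the other low libraries, red points the high libraries and bars the group means. In every gene shown the high libraries lie left of the low ones, and Ptgs1 and Dgat2 on the right are the genes that did not pass the test.

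Tetraspanins and annexins, which organise membranes, held 5 called genes. Of these, Cd63 and Anxa3 are also in the granulocyte lists. Of 19 tetraspanins 3 fell (median -0.67, or -0.43 without low library 1, 11 below and 0 above in all libraries). Cd63, of granule and lysosome membranes, fell from 463, 280.5 and 392 to 53.7, 70.2 and 46.6 CPM, 6.65-fold (adjusted p = 0.004602), Cd9 from 173, 110.0 and 120.0 to 44.9, 55.3 and 41.8 CPM (adjusted p = 0.0372) and Tspan4 from 22.1, 22.96 and 24.3 to 8.81, 9.27 and 8.43 CPM (adjusted p = 0.0481). Of 9 annexins 2 fell. Anxa1, a ligand of formyl peptide receptors that damps neutrophil entry, fell from 3086, 1851 and 1968 to 411, 776 and 514 CPM (adjusted p = 0.0387) and Anxa3 from 286, 217 and 233 to 92.1, 109.9 and 109.6 CPM (adjusted p = 0.0336). In Anxa1 high library 2 was the nearest to the low group.

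Genes of immune receptors, cytokines, the oxidase and MAP kinases are given next, from lists that held 1 called gene each. Il1r2, the decoy receptor of interleukin-1, fell from 20.2, 18.7 and 18.6 to 4.403, 4.89 and 4.05 CPM, 4.3-fold (adjusted p = 0.0114), 1 of 11 genes of its list. In that list 5 lay below and 0 above in all libraries, and 5 were lower and 0 higher at unadjusted p under 0.05. Its median was -1.01, or -1.06 without low library 1. Il1rn, the receptor antagonist, lay below in all libraries at 24.1, 14.4 and 14.9 against 8.03, 6.76 and 6.29 CPM without passing (adjusted p = 0.162). Tnfsf13b, the B cell survival factor BAFF, fell from 25.6, 15.4 and 13.1 to 4.21, 4.495 and 3.31 CPM (adjusted p = 0.0399), 1 of 21. Hvcn1, the proton channel that sustains the oxidative burst, fell from 182, 152 and 163 to 34.7, 40.8 and 43.3 CPM, 4.19-fold (adjusted p = 0.00416), 1 of 10 in the NADPH oxidase list, whose subunit Ncf1 stood at 433, 539 and 575 against 358, 306 and 335 CPM (adjusted p = 0.321). The low and high libraries of Hvcn1 each kept within a narrow range. Mapk13, the kinase p38 delta, fell from 134, 104 and 129.5 to 31.7, 37.5 and 26.1 CPM (adjusted p = 0.00825), 1 of 31 in the MAP kinase list, where Mapk8, the kinase JNK1, stood at 5.596, 8.64 and 10.7 against 17.5, 12.1 and 19.7 CPM (adjusted p = 0.385).

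TREM receptors split by member. Of 8 tested 1 fell, 1 lay above and 5 below in all libraries (median -1.21). Trem3, a DAP12-coupled receptor of mouse myeloid cells that is also in the granulocyte lists, fell from 284, 199 and 205 to 40.5, 76.4 and 52.6 CPM (adjusted p = 0.02105). Trem1, which amplifies inflammation, stood at 15.6, 21.5 and 15.9 against 8.07, 4.89 and 5.51 CPM (adjusted p = 0.103), and Trem2 was the one above, as given earlier. Of 27 CD300, PIR, SIRP and SIGLEC receptors 2 fell, 14 lay below and 1 above (median -0.77). Cd300ld fell from 36.7, 26.5 and 29.2 to 9.22, 11.3 and 8.88 CPM (adjusted p = 0.0335) and Pilrb2, an activating paired receptor, from 73.8, 55.95 and 70.01 to 22.1, 27.6 and 18.9 CPM (adjusted p = 0.03096). Among 19 C-type lectins Mgl2, which binds galactose-type sugars on macrophages, fell from 50.5, 31.4 and 36.4 to 8.32, 6.88 and 7.52 CPM, 5.21-fold (adjusted p = 0.00892), and 12 lay below against 2 above. Macrophage and red pulp genes, 0 called by edgeR, with 2 higher and 11 lower at unadjusted p under 0.05 and 1 higher and 7 lower by DESeq2, had 13 of 26 below and 2 above (median -0.67). Vcam1, the adhesion molecule of splenic macrophages, stood at 95.8, 84.2 and 78.7 against 30.8, 42.8 and 38.1 CPM (adjusted p = 0.0517).

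The 15 called lower genes of largest change outside the granule lists had log2 differences from -3.56 to -2.31. Ppbp, a platelet chemokine, led them, falling from 17.04, 14.2 and 14.7 to 1.8, 0.734 and 1.36 CPM (adjusted p = 0.00825). Other platelet genes fell too, with Gp5 and Itga2b, subunits of platelet adhesion receptors, at log2 -2.801 and -2.05. The 17 platelet markers summed to 748.3 to 1099 CPM in the low and 448 to 697.9 CPM in the high libraries, and the part of platelets was not tested. Inhba, the activin A subunit, fell from 13.3, 12.4 and 17.4 to 1.25, 0.979 and 2.46 CPM, 9.17-fold, and Tuba8, an alpha tubulin, from 82.6, 57.8 and 71.5 to 4.56, 10.6 and 8.91 CPM, 8.82-fold. The groups of both were widely separated. Serpine2, a protease inhibitor, fell from 29.4, 15.3 and 21.7 to 3.25, 3.52 and 3.76 CPM, and Tinagl1, a matrix protein, from 35.6, 33.6 and 34.1 to 5.01, 7.83 and 4.83 CPM. Gca, the calcium-binding grancalcin of granulocytes, fell from 97.7, 95.5 and 67.8 to 14.9, 12.3 and 18.6 CPM and Sytl1, a synaptotagmin-like protein of secretion, from 15.6, 17.8 and 17.4 to 2.7, 3.85 and 2.59 CPM. Prom1, the stem cell antigen CD133, fell from 33.7, 42.7 and 31.4 to 6.33, 8.35 and 6.35 CPM. Tmem40, Tmem216, a protein of the cilium base, and Ica1, a vesicle protein, fell by 2.81, 2.43 and 3.14 on the log2 scale. Mogat2, Ffar2, Mgl2 and G0s2, which complete the 15, are given with their families. Klf5, a zinc finger factor named after its values were seen, fell from 16.7, 25.1 and 20.7 to 5.59, 5.38 and 7.58 CPM (adjusted p = 0.0463).

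Several families held no called gene, which does not show them equal. MHC class II presentation had 0 of 13 called and a median of -0.11, or 0.08 with library totals and -0.03 without low library 1, with Ifi30, a lysosomal thiol reductase, at log2 0.58 ± 0.24 (adjusted p = 0.435). Interferon-stimulated genes had 0 of 29 and -0.21, or -0.05 without low library 1, with Mx1, an antiviral GTPase, at 1.05 ± 0.39 (adjusted p = 0.4203). Cytosolic ribosomal proteins had 55 of 58 above 0, against 7861 of all 15541 genes tested (median 0.48, or 0.31 without low library 1), 0 called and 0 separated between the groups. Mitochondrially encoded genes had a median of 0.63 with 4 of 13 at unadjusted p under 0.05, or 0.42 and 0 without low library 1. Nuclear respiratory chain subunits had a median of -0.26 with all 30 below 0, or -0.13 without low library 1. In either list 0 were called. The mitochondrial shares given at the start are made from the counts of the mitochondrially encoded genes, so they are no separate observation.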

How the data were processed

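RNA-seq of 3 Nrp1 high and 3 Nrp1 low libraries (low-input SMART-Seq cDNA amplified by PCR, paired reads of 150 bases, per the labels' protocols) was analysed from the authors' deposited gene table, whose values are estimated counts. HISAT2, StringTie and the mouse build GRCm38 are named per the submitters' processing notes, without versions or roles, and whether counting used strand is not stated there. Estimated counts that come from coverage can carry more error than read counts. They were whole numbers, so rounding changed nothing. The ATAC values are the log2 fold, p-value and FDR of the authors' deposited comparison, and no ATAC library value was used.

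After filterByExpr and TMM scaling, the robust quasi-likelihood test of edgeR 4.0.16 was run with group as the only term in R 4.3.3, with Benjamini-Hochberg adjustment over all 15541 genes tested. A gene was called at adjusted p under 0.05. CPM use TMM-scaled sizes, means carry the SD of 3 libraries, and log2 differences are given with their SE. The procedure was tested on simulated data. DESeq2 1.42.0, limma 3.58.1 (voom), other scalings and filters, a replicate block and leaving out each library were the alternatives.

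Genes named were Nrp1, the 20 of lowest p and the 10 of largest difference among higher genes with at least 10 CPM in the high group and groups that did not overlap, the 15 called lower genes of largest change with at least 10 CPM in the low group outside the granulocyte lists, and up to 3 members of each list by p. Predicted and clone symbols were left out. Members and lists were chosen with earlier results of these data known, so lists carry no test. Of 1681 list symbols 1642 were matched, 29 of them by gene ID. Promoters and gene positions are RefSeq's on GRCm38.p6. One gene that the rule names is not reported here.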

Additional observations from a re-analysis of the deposited data

How the results depend on the processing

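The counts of genes moved with the processing. The number called higher, 1, was 2 with upper-quartile factors, 4 with no filter, 2 with a filter of 1 CPM, 77 with DESeq2, 0 with the replicate block and 6 at adjusted p under 0.1. The number called lower, 105, was 326 with DESeq2, 0 with the replicate block and 163 at adjusted p under 0.1. Higher calls were 19.1% of all calls with DESeq2 and 0.943% with edgeR. At unadjusted p under 0.05, the 699 higher and 1045 lower genes were 1268 and 605 with library totals, which move the median of all genes by 0.189, and 399 and 544 with the replicate block. The higher and lower counts there were 1116 and 1203 with no filter, 1154 and 1135 with DESeq2, and 1327 and 1160 with limma-voom. Leaving out each library gave 0 to 5 genes called higher and 0 to 120 called lower, and 276 to 1837 higher and 633 to 1636 lower at unadjusted p under 0.05. Ly6c2, near 0 at -0.04, was at 0.1686 with library totals and from -0.1858 to 0.1651 when each library was left out. The log2 difference of Nrp1 passed the threshold with DESeq2, at 1.34. The labels name no pairing of the libraries, so the block was no main design. Deviations of same-numbered libraries correlated at -0.237, -0.24 and 0.021, and those of other pairs across the groups from -0.156 to 0.317. With 3 libraries per group these values cannot tell whether same-numbered libraries were paired. The cause of these shifts was not tested.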
